A study of Mus musculus with 18 samples.

Results

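Milk sugar is made by a short chain of proteins, and 6 genes of that chain were followed here: Lalba, B4galt1, Slc2a1, Slc35a2, Ugp2 and Galt. They were chosen by their role in lactose synthesis, by a rule that uses no measured value but was set with earlier results of these data known, and are 6 of the 31053 genes in the count tables. Lactose is joined from glucose and UDP-galactose in the Golgi of milk-producing alveolar cells. The galactosyltransferase encoded by B4galt1 galactosylates glycoproteins in most cells, and prefers glucose as its acceptor once it is bound by alpha-lactalbumin, the milk protein encoded by Lalba. The pair is called lactose synthase. Slc2a1 encodes the glucose transporter GLUT1, Slc35a2 carries UDP-galactose into the Golgi, Ugp2 makes UDP-glucose, and Galt exchanges the sugar of UDP-glucose for galactose. Lactose draws water into milk, so its synthesis sets milk volume.

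The data were 18 droplet single-cell RNA libraries, each a separate sample of pooled mice, in which unique molecular identifiers (UMIs) were counted per gene and cell. The FVB/NJ pregnancy cycle had 3 libraries of adult virgin females at 10 weeks (replicates A10, P7 and D12), 2 at pregnancy day 12.5 (H and G), 2 at pregnancy day 18.5 (F4 and B4), 2 at lactation day 10 after birth (F11 and D6) and 1 after involution, labelled 3 weeks post birth. The C57BL/6 series had 1 library each of the E18.5 mammary rudiment and its adjacent skin, both from Lgr5-GFP embryos, postnatal day 5, pre-puberty at 2.5 weeks, the terminal end bud (TEB) and the duct at 5 weeks, and the adult virgin gland at 10 weeks, and 1 SWISS library came from adult virgins of the same age. TEBs and ducts were dissected by hand from E-cadherin-GFP females. Stages are given as labelled, although the study's text dates lactation, pre-puberty and post-involution differently in places. No gene was deleted and no drug was given, and glands were not staged for estrus. Cells were sorted as negative for blood and endothelial markers and by CD24 and CD29, so shares of cells reflect the sort as well as the gland.

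Each library was divided by marker genes into luminal progenitor and alveolar cells (LP/alveolar), basal cells, mature luminal (ML) cells and other types. LP and alveolar cells were kept as a single class, whose 13 markers hold LP genes such as Kit and Aldh1a3 and milk genes such as Btn1a1. None of the 6 genes was a marker, but the class was defined in part by genes of milk secretion. Of 123574 cells kept in the 17 mammary libraries, 114020 fell in the 3 epithelial classes, and 9.961% of those lay near a class boundary. In every library but the E18.5 rudiment, where it was 8, 10 to 13 of the 13 LP/alveolar markers were highest in that class. Median depth ran from 2498 UMIs per cell in adult P7 to 21609 in the TEB library, and 48.6% of barcodes in lactation F11 and 68.9% in D6 passed the study's quality limits, against at least 86.2% elsewhere. Of 153 library pairs, 115 shared at least 1 cell barcode. The largest number was 239 barcodes, for F4 and G, and the largest share of the smaller library was 2.4118%, for the duct and G. Adult P7 shared none with any other library, while adult A10 and D12 shared 73. Levels are in scaled CPM, the counts of a gene summed over a class, scaled as CPM to the total outside the 5 caseins and Wap and corrected by trimmed mean of M-values (TMM). Caseins and Wap were kept out because they were 76.3% of all LP/alveolar UMIs in lactation D6 and 0.206% in adult D12. A level of a class is a mean over its cells, so fewer cells expressing a gene and less RNA per cell cannot be told apart from it.

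Lalba lies on chromosome 15 and the other members on chromosomes 4, 11 and X of the mouse GRCm38 genome. In the GENCODE annotation, Lalba (ENSMUSG00000022991) spans chr15:98480400-98482721 on the minus strand and overlaps no other gene. B4galt1 (ENSMUSG00000028413) spans chr4:40804602-40854005 on the minus strand and holds only microRNA genes within it. Slc2a1 (ENSMUSG00000028645) spans chr4:119108711-119137983, Slc35a2 (ENSMUSG00000031156) chrX:7884028-7894492 and Ugp2 (ENSMUSG00000001891) chr11:21321138-21371201. Galt (ENSMUSG00000036073) at chr4:41755228-41758695 overlaps Il11ra1 on the same strand, so its counts are uncertain.

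The promoters of the pair that make up lactose synthase are shown because these genes gave the largest differences between stages. Each runs from 250 bases before to 50 bases after the RefSeq start (GRCm38.p6), 5′ to 3′ on the gene's own strand. Capitals mark matches to any of 4 motifs searched on both strands, TTCNNNGAA (the palindrome bound by STAT factors), the GC box GGGCGG, the CCAAT box and the TATA box TATAAA, which do not overlap in these windows. The first sequence is chr15:98482634-98482933 and the second chr4:40853935-40854234, both minus strand.
Lalba: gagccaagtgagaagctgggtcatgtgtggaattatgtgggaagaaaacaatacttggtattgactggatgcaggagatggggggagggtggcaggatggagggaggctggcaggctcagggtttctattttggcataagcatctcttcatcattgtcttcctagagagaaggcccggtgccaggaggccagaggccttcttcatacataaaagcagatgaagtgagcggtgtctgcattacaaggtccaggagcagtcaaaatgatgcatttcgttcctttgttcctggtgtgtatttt
B4galt1: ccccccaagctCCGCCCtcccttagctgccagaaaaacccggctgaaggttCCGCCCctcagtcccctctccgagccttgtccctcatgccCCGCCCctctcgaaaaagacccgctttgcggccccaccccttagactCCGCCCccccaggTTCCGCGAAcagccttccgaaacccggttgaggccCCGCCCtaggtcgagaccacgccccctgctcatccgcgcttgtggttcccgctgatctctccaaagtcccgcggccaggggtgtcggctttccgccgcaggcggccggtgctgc
The Lalba window was 49.0% G and C with 3 CpG dinucleotides and matched none of the 4 motifs. The B4galt1 window was 68.3% G and C with 26 CpG dinucleotides, and held 1 match to TTCNNNGAA and 5 to GGGCGG. Among 32851 promoter windows of this length, 8.3% held TTCNNNGAA, 35.7% GGGCGG, 37.4% CCAAT and 13.6% TATAAA. The 6 windows listed for the other 4 genes ranged from 56.3 to 76.0% G and C, none held TTCNNNGAA, and 5 held GGGCGG. A match describes letters only and not binding.

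In LP/alveolar cells, both parts of lactose synthase were highest in the 2 lactation libraries. B4galt1 was already higher at pregnancy day 12.5 than in the virgin gland, whereas the day 12.5 levels of Lalba lay within the range of the virgin libraries. Both were higher in each day 18.5 library than in each of day 12.5, a step in which neither passed in edgeR, and the timing of the 2 genes was not tested against each other. The 4 genes that import glucose or supply and move UDP-galactose varied less between libraries, and of these Slc35a2 alone passed within the class, from the adult to lactation.

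Lalba, the regulatory part of lactose synthase, measured 5365, 1573 and 121 scaled CPM in the LP/alveolar cells of adult A10, P7 and D12. It was 233 and 305 at pregnancy day 12.5 in H and G, 4225 and 6039 at day 18.5 in F4 and B4, 31262 and 29723 at lactation in F11 and D6, and 4842 after involution. Adult A10 was therefore as high as late pregnancy, and the virgin libraries differed from each other by 44.5-fold. Both day 12.5 libraries lay between adult D12 and adult P7, whereas the day 18.5 and lactation groups did not overlap their preceding stage.

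B4galt1, the catalytic part, measured 80.1, 20.7 and 39.2 scaled CPM in the LP/alveolar cells of the 3 adults (46.7 ± 30.4, SD, n = 3). It was 229 and 248 at day 12.5, 1033 and 1312 at day 18.5, 1423 and 1460 at lactation, and 131 after involution. No 2 neighbouring stages overlapped, although the virgin libraries spread 3.87-fold. The lone post-involution library lay above the 3 virgin libraries and below all 6 of pregnancy and lactation.

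**Figure D1:**
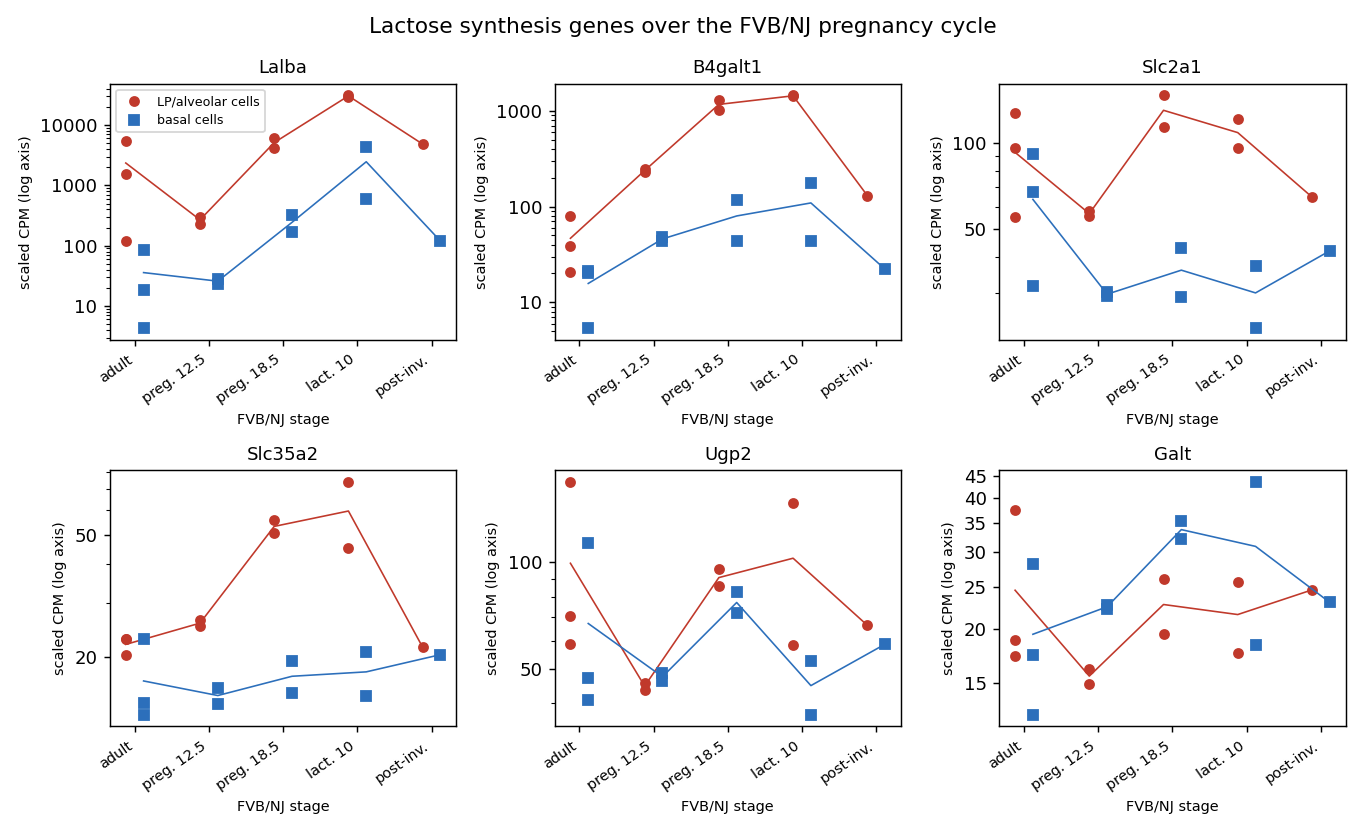
Levels of the 6 genes (scaled CPM, log axes) at each FVB/NJ stage, 1 point per library in LP/alveolar (red circles) and basal (blue squares) cells, with lines joining stage means. B4galt1 in LP/alveolar cells climbs from 20.7 to 80.1 in the adults to 1423 and 1460 at lactation, while Galt in the same cells stays between 14.9 and 37.5.

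The stages were compared with edgeR's quasi-likelihood test, fitted over 14057 genes in LP/alveolar cells with p adjusted by Benjamini-Hochberg over all of them, at 0.05. From adult to pregnancy day 12.5, 1 of the 6 genes passed, and 10.8% of all genes tested did. B4galt1 rose 5.07-fold (log2 change 2.34, SE 0.512, edgeR adjusted p = 0.0221). The call was lost without either day 12.5 library (edgeR adjusted p = 0.154 without H and 0.165 without G), and stood at 0.0501 without adult D12. Lalba had a log2 change of -3.13 (SE 1.23) that did not pass (edgeR adjusted p = 0.127), and Slc2a1 (-0.70), Ugp2 (-1.15), Galt (-0.63) and Slc35a2 (0.23) did not pass either. Without adult D12, which had the lowest Lalba, the Lalba change was -3.80 and passed (edgeR adjusted p = 0.0143), while without A10, which had the highest, it was -1.61 and did not (0.296). DESeq2 called Lalba with all libraries.

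From pregnancy day 12.5 to day 18.5 all 6 log2 changes were positive, with a median of 1.12 against 0.0555 for all genes tested. None passed in edgeR, where 0.847% of all genes did. At an unadjusted p under 0.05 there were 4 (Lalba, B4galt1, Slc2a1 and Slc35a2), and DESeq2 called 3 (Lalba, B4galt1 and Slc35a2). Shares of all genes are given throughout for edgeR's adjusted threshold only, and none for unadjusted p or DESeq2. The log2 changes were 4.25 (SE 1.34) for Lalba, 2.30 (SE 0.586) for B4galt1, 1.19 (SE 0.401) for Slc2a1, 1.04 (SE 0.302) for Slc35a2, 1.02 (SE 0.557) for Ugp2 and 0.55 (SE 0.402) for Galt. Their edgeR adjusted p ran from 0.109 for B4galt1 to 0.570 for Galt. The 2 groups did not overlap for any of the 6 genes. With 2 libraries a stage such a gap can arise without a change, and its share over all genes was not counted.

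From day 18.5 to lactation, Lalba had a log2 change of 2.57 (SE 1.247, edgeR adjusted p = 0.319) and that of B4galt1 was 0.30 (SE 0.560, edgeR adjusted p = 0.844). None of the 6 passed in edgeR or DESeq2, none had an unadjusted p under 0.05, and 3.32% of all genes passed in edgeR. Lalba levels did not overlap between these stages, and neither did those of B4galt1, whose means were 1172 ± 197 and 1442 ± 26.6 scaled CPM (SD, n = 2 each).

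The whole span, lactation against the virgin adult, was added as a comparison after the data were seen, and 3 of 6 genes rose while none fell, beside 26.7% of all genes called and 15.3% called higher. B4galt1 was 30.6-fold higher (log2 change 4.94, SE 0.557, edgeR adjusted p = 0.000455). Lalba was 13.0-fold higher (log2 change 3.70, SE 1.12, edgeR adjusted p = 0.0361). Its log2 change ran from 3.24 without D12 to 5.22 without A10 over the alternatives, and its call was lost when P7, F4, B4, F11 or D6 was left out (edgeR adjusted p from 0.0594 to 0.096) and with at least 1000 genes per cell (0.0525). Slc35a2 was 2.72-fold higher (log2 change 1.44, SE 0.275, edgeR adjusted p = 0.00535), and its call was lost without D6 (edgeR adjusted p = 0.0627). Slc2a1, Ugp2 and Galt did not pass, and their log2 changes ran from -0.30 to 0.54, from -0.74 to 0.70 and from -0.70 to 0.27 over the alternatives tried. Of all genes called, 2146 were higher and 1601 lower. Without TMM the numbers were 1451 and 2970, with the median of all genes shifted by -0.471, and on counts outside all milk genes without TMM they were 1587 and 2570, with a shift of -0.364. B4galt1, Lalba and Slc35a2 passed as higher on each of these scales.

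**Figure D2:**
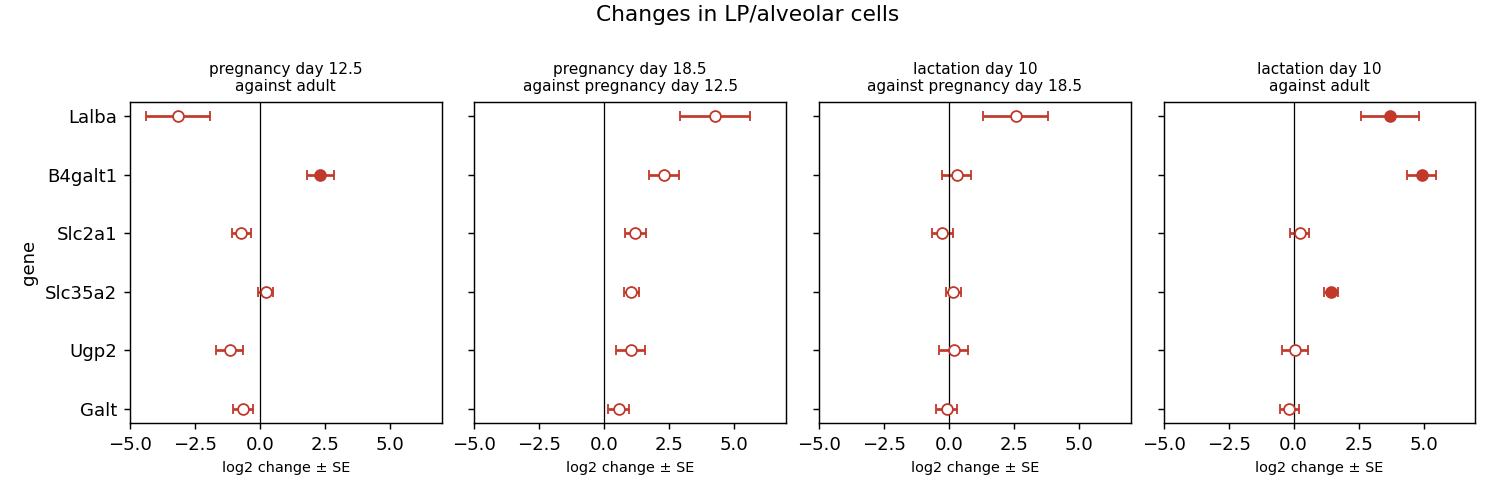
Log2 changes of the 6 genes in LP/alveolar cells for 3 steps of the cycle and for lactation against the adult, with bars of 1 standard error from the edgeR fit and filled points for genes that passed at 0.05. From pregnancy day 12.5 to 18.5 all 6 points lie above 0, from 0.55 for Galt to 4.25 for Lalba.

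After involution, Lalba at 4842 scaled CPM lay within the range of the virgin libraries. B4galt1 at 131 had a log2 change of 1.47 against the adults (SE 0.606, unadjusted p = 0.0359, edgeR adjusted p = 0.954). None of the 6 genes passed in edgeR or DESeq2, B4galt1 alone had an unadjusted p under 0.05, and 0.00711% of genes passed in edgeR. With a single library, the test assumes that it varies like the others. Per the study's methods it was processed together with a virgin FVB/NJ library.

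Slc2a1, the glucose importer, measured 95.6, 127 and 55.4 scaled CPM in the LP/alveolar cells of A10, P7 and D12. It was 57.9 and 55.6 at day 12.5, 146 and 113 at day 18.5, 95.7 and 121 at lactation, and 64.8 after involution. The lactation values lay inside the adult range, and the day 12.5 values near its lower end. In basal cells it was 67.4, 91.5 and 31.9 in the adults and 22.8 and 37.5 at lactation in F11 and D6.

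Slc35a2, which supplies the Golgi with UDP-galactose, measured 20.3, 22.9 and 22.8 scaled CPM in the adult LP/alveolar cells, the tightest spread of the 6 genes (1.13-fold). It was 25.2 and 26.3 at day 12.5, 55.8 and 50.4 at day 18.5, 45.2 and 74.0 at lactation, and 21.6 after involution. Every late pregnancy and lactation library was above every other FVB/NJ library. The post-involution value lay within the adult range.

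Ugp2 and Galt, the enzymes that make UDP-glucose and turn it to UDP-galactose by exchange, did not pass in LP/alveolar cells in edgeR, except that Ugp2 passed at day 12.5 without the low-count filter. Ugp2 measured 70.5, 169 and 58.8 scaled CPM in the adults, 43.6 and 45.6 at day 12.5, 85.5 and 95.6 at day 18.5, 58.2 and 147 at lactation, and 66.3 after involution. Its day 12.5 values were the lowest of the cycle, and the lactation libraries spanned most of the adult range. Adult fibroblasts held more Ugp2 than any epithelial class of their library, at 190 to 281 scaled CPM over the 5 adult libraries. Galt measured 17.3, 37.5 and 18.8 in the adult LP/alveolar cells, 16.2 and 14.9 at day 12.5, 26.1 and 19.4 at day 18.5, 25.6 and 17.5 at lactation, and 24.6 after involution. Its virgin and lactation values overlapped.

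The share of LP/alveolar cells with a UMI was also followed over the stages. To compare shares across depths, each cell was thinned to 1000 UMIs outside the caseins and Wap. With this depth a Lalba UMI was seen in 63.6, 46.0 and 4.98% of LP/alveolar cells in adult A10, P7 and D12 (75.4, 59.8 and 10.0% unthinned), where 11, 8 and 1 cells were too shallow. The share was 14.1 and 15.9% at day 12.5 (39.2 and 42.2% unthinned, 1 and 5 cells left out) and 78.4 and 83.5% at day 18.5 (94.1 and 95.3%, 17 and 7 left out). It was 98.8 and 98.6% at lactation (99.9 and 99.1%, 90 and 13 left out) and 60.4% after involution (75.0%, 7 left out). Exact 95% binomial intervals reached at most 3.74 points to either side, for counting error only. The shares were highest in the 2 lactation libraries. Fibroblasts of these libraries gave 95.3% in F11 (exact 95% interval 86.9 to 99.02%) and 28.8% in D6 (24.4 to 33.4%), so the F11 share of LP/alveolar cells lay within the interval of a class that makes no milk. Lalba levels, at 31262 scaled CPM in F11 LP/alveolar cells and 3418 in its fibroblasts, stood further apart.

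B4galt1 followed another order. Thinned, it was seen in 5.84, 1.40 and 3.46% of adult LP/alveolar cells in A10, P7 and D12, 16.1 and 16.7% at day 12.5, 47.9 and 56.96% at day 18.5, 50.7 and 57.3% at lactation, and 9.51% after involution. Unthinned, the shares were 24.9, 5.69 and 14.1%, 58.7 and 58.4%, 87.8 and 94.4%, 72.3 and 92.0%, and 35.6%. The late pregnancy and lactation shares overlapped for B4galt1 and not for Lalba.

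**Figure D3:**
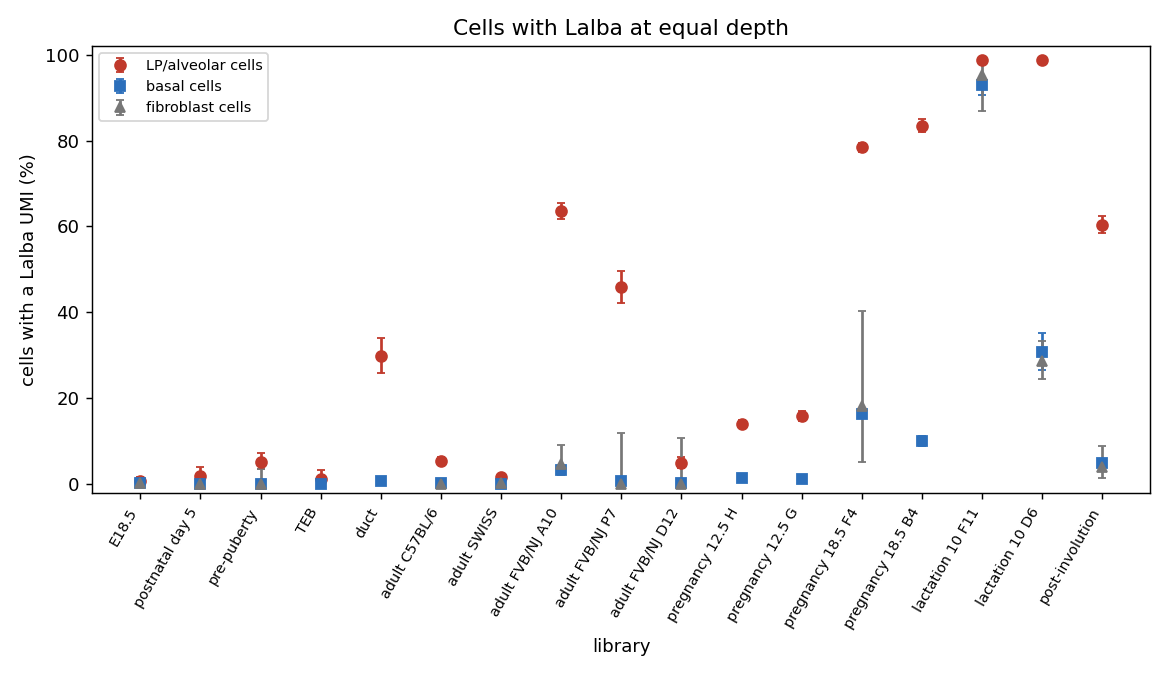
Share of cells with a Lalba UMI in each mammary library (percent) after thinning to equal depth, by class, with exact 95% binomial intervals that cover counting error only. The lactation libraries reach 98.8 and 98.6% of LP/alveolar cells, and in lactation F11 basal cells and fibroblasts reach 92.9 and 95.3%.

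Lalba UMIs were not spread evenly over the class. The 10% of LP/alveolar cells with the most Lalba held 42.2% of its UMIs in adult A10, 49.5% in P7, all of them in D12, 60.3 and 61.9% at day 12.5, 30.2 and 31.1% at day 18.5, and 31.7 and 21.0% at lactation. After involution they held 51.5%. The day 18.5 shares were close to that of lactation F11 and above that of D6. The median cell held 9, 1 and 0 Lalba UMIs in A10, P7 and D12, 0 in both day 12.5 libraries, 11 and 24 at day 18.5, 38 and 76 at lactation, and 6 after involution. These figures are not corrected for depth.

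Lalba was also counted outside the LP/alveolar class, and there its libraries differed. In basal cells it measured 84.8, 18.4 and 4.32 scaled CPM in adult A10, P7 and D12, 23.3 and 28.4 at day 12.5, 321 and 167 at day 18.5, 4342 and 596 at lactation in F11 and D6, and 120 after involution. The 2 lactation libraries thus differed 7.29-fold in basal cells and 1.05-fold in LP/alveolar cells. Fibroblasts of the same 2 libraries held 3418 and 526 scaled CPM of Lalba, and immune cells, which the sort should have removed, 3056 and 1415.

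Beside these values stand the ratios among milk transcripts. In lactation F11 there were 0.721 Lalba UMIs per 100 casein and Wap UMIs in LP/alveolar cells, 0.661 in basal, 0.701 in ML, 0.636 in fibroblast, 0.682 in endothelial and 0.631 in immune cells. In D6 the ratios were 0.559, 0.518, 0.419, 0.490, 0.496 and 0.506 in the same order, and the ML value rested on 36 Lalba UMIs. In adult A10 they were 11.05 in LP/alveolar, 11.6 in basal and 12.2 in ML cells, 7.48 in fibroblasts with 36 Lalba UMIs and 20.9 in endothelial cells with 14.

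After thinning, 92.9% of basal cells and 95.3% of fibroblasts in lactation F11 held a Lalba UMI, and 30.9% and 28.8% in D6. Each basal share thus lay within the interval of the fibroblast share of its library. These shares cover only cells with at least 1000 UMIs outside caseins and Wap, and shallower cells were left out. Median depths outside caseins and Wap were 1106 UMIs in F11 basal cells and 1431 in its fibroblasts. The part of background in the basal and ML changes below was not tested.

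In basal cells, 2 of 6 genes rose from the adult to lactation, where 3.69% of all 14679 genes tested passed and 2.85% passed as higher. They were Lalba (68.3-fold, log2 change 6.09, edgeR adjusted p = 0.0167) and B4galt1 (log2 change 2.76, edgeR adjusted p = 0.0487). Both calls were lost without F11, and the Lalba change then fell to 3.98 and that of B4galt1 to 1.37. The Lalba change was 7.78 without A10 and 7.06 without D6, and that of B4galt1 was 3.58 without D6. The B4galt1 call was also lost without A10, P7, D12, F4 or B4 (edgeR adjusted p from 0.0563 to 0.0814). In the 4 steps of the cycle none of the 6 passed in basal cells, with 1.2, 0, 0.824 and 0% of all genes called in order. At an unadjusted p under 0.05 there were 2, 1, 1 and 0 of the 6, and DESeq2 called Lalba in the step to lactation and none in the other steps. No share of all genes is given for the unadjusted and DESeq2 counts.

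In ML cells, of which the pregnancy and lactation libraries held only 66 to 234, none of the 6 genes passed in edgeR in any step or from adult to lactation. The share of all 9767 genes called was 5.93, 0, 0 and 0.174% in the 4 steps and 1.89% over the whole span. At an unadjusted p under 0.05 there were 0 in the steps to days 12.5 and 18.5, 2 (Lalba and Ugp2) in the step to lactation and 0 after involution, and DESeq2 called 0 in all 4. In the step to lactation the log2 change was 3.71 for Lalba and -2.09 for Ugp2. Ugp2 had only 0.013 to 0.030 UMIs per ML cell in the lactation libraries. Over the whole span the unadjusted count was 2 (Ugp2, with a log2 change of -2.55, and Lalba). DESeq2 called Lalba, whose log2 change was 4.39 (edgeR adjusted p = 0.0997). The unadjusted and DESeq2 counts have no share of all genes beside them.

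The changes of the 2 lineages were then set against each other in a model with a term for each library, so that each library's basal cells served as its own reference. From adult to lactation, 3 of 6 genes differed between LP/alveolar and basal cells, beside 16.2% of the 15507 genes tested. The log2 change in LP/alveolar cells exceeded that in basal cells by 2.42 for B4galt1 (SE 0.647, edgeR adjusted p = 0.0260), by 1.30 for Slc35a2 (SE 0.364, edgeR adjusted p = 0.0314) and by 1.27 for Slc2a1 (SE 0.233, edgeR adjusted p = 0.00422). Slc2a1 itself passed in neither class. Each call was lost under some alternative: that of B4galt1 without D12 or D6 and with at least 1000 genes per cell, that of Slc2a1 without TMM, and that of Slc35a2 without H, G, D12 or D6, without TMM and outside all milk genes. Lalba differed by -1.53 (SE 0.754, edgeR adjusted p = 0.204), Ugp2 by 0.55 and Galt by -0.76, and none of these passed. In the 4 steps none of the 6 passed in edgeR, where 5.98, 0.819, 0.967 and 0.0258% of genes did, and 3, 3, 1 and 0 had an unadjusted p under 0.05. The smallest adjusted p there was that of Slc2a1 from day 12.5 to day 18.5 (difference 0.93, edgeR adjusted p = 0.0748). No share of all genes is given for the unadjusted counts.

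The difference can be read from the levels. Slc2a1 in LP/alveolar cells was 1.42, 1.39 and 1.74 times its basal level in adult A10, P7 and D12, and 4.20 and 3.23 times at lactation in F11 and D6. Slc35a2 was 1.56, 1.60 and 0.994 times its basal level in the adults and 2.17 and 4.94 times at lactation. B4galt1 was 3.93, 3.85 and 1.83 times its basal level in the adults and 8.11 and 33.7 times at lactation. For Slc2a1 the LP/alveolar level at lactation was inside the adult range, while the basal levels, 22.8 and 37.5 scaled CPM, lay below and near the lowest adult value of 31.9.

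In the pubertal gland, Lalba was higher in the duct library than in the TEB library in all 3 epithelial classes. LP/alveolar cells of the duct held 1038 scaled CPM of Lalba, from 7199 counts in 510 cells, and those of the TEB 20.7, from 127 counts in 302 cells. The duct level was 50.1-fold higher (95% interval 42.0 to 60.2, for counting error only). Each structure was 1 library, so the difference has no replicate check, and the stricter gate gave 73.6-fold. In basal cells Lalba had 109 counts in the duct and 3 in the TEB (41.0-fold, interval 13.7 to 202), or 30 and 0 with the stricter gate, and in ML cells 374 and 12 (89.2-fold, interval 50.5 to 174, and 10.55-fold with the stricter gate). The part of free RNA or of the gate in these differences was not tested.

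The other 5 genes differed less between the LP/alveolar cells of these libraries. B4galt1 was 26.1 scaled CPM in the duct and 33.1 in the TEB (ratio 0.788, interval 0.641 to 0.968). Slc2a1 was 23.9 against 16.3 (ratio 1.47, interval 1.14 to 1.90), Slc35a2 18.0 against 13.9 (1.30, 0.979 to 1.73), Galt 21.2 against 17.9 (1.18, 0.916 to 1.53) and Ugp2 60.6 against 60.4 (1.003, 0.870 to 1.16). The catalytic part of lactose synthase was thus not higher in the class where the regulatory part was. In basal cells the B4galt1 ratio was 0.594 (interval 0.462 to 0.759), and in ML cells Slc2a1 had a ratio of 0.637 (0.536 to 0.754) and Ugp2 of 0.712 (0.625 to 0.809). The remaining basal and ML ratios of the 5 genes ran from 0.776 to 1.29. Csn2, the beta-casein gene, had 224 counts in the duct class and 0 in that of the TEB, and Csn3, the kappa-casein gene, was 2.19-fold higher in the duct class, but in basal cells it was 91.9 scaled CPM in the duct and 1070 in the TEB. Btn1a1, the milk fat globule protein butyrophilin, was 64.6-fold higher, but was a marker used to define the class.

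Within the duct, 227 LP/alveolar cells had no Lalba UMI, 133 had 1 to 9, and 150 (29.4%) had 10 or more, against 4 of 302 (1.32%) in the TEB. The duct groups had median depths of 11823, 11516 and 12272 UMIs outside caseins and Wap. Csn2 was 0, 1.11 and 98.9 scaled CPM in the 3 groups, and Csn3 3485, 4693 and 6065. B4galt1 was 23.9, 24.3 and 30.3 scaled CPM, with counting intervals of 18.6 to 30.3 and 23.5 to 38.4 at the ends, and Slc2a1 was 24.3, 23.2 and 24.1. Beta-casein was thus counted almost wholly in the cells rich in Lalba, and Slc2a1 was level across the groups. As the groups were set by Lalba itself, these are descriptions of 1 library.

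Adult A10 showed the same grouping with other levels. Its 656 LP/alveolar cells without Lalba, 688 with 1 to 9 UMIs and 1321 with 10 or more held 920, 3277 and 18504 scaled CPM of Csn2. B4galt1 was 63.1, 70.1 and 90.6 scaled CPM and Slc2a1 76.7, 75.4 and 111. Median depth went from 3906.5 to 4366 and 5736 UMIs in the same order, so the grouping followed depth in part. Other libraries varied. The pre-puberty and adult C57BL/6 LP/alveolar cells with 10 or more Lalba UMIs, 20 and 27 cells, had 0 Csn2 counts. In adult SWISS, Csn2 was 628 scaled CPM without Lalba and 1206 with 1 to 9 UMIs. In pregnancy day 12.5 H, B4galt1 was 178 scaled CPM without Lalba and 293 with 1 to 9 UMIs. Median depths of these H groups were 5776 and 6313 UMIs.

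**Figure D4:**
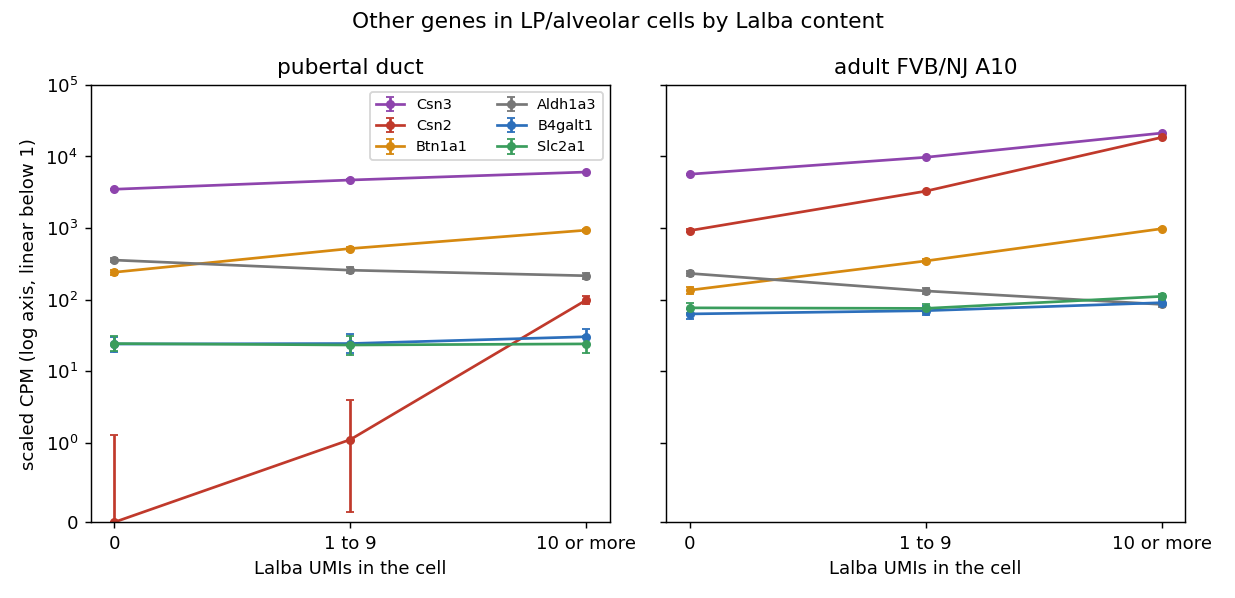
Levels of 6 genes (scaled CPM, log axis, linear below 1) in LP/alveolar cells of the duct and adult A10 libraries, grouped by Lalba UMIs per cell, with exact 95% Poisson intervals. Csn2 in the duct runs from 0 counts to 98.9 scaled CPM while B4galt1 runs from 23.9 to 30.3.

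Across the remaining mammary libraries, Lalba in LP/alveolar cells was 11.4 scaled CPM in the E18.5 rudiment, 13.6 at postnatal day 5, 109 at pre-puberty, 107 in adult C57BL/6 and 34.5 in adult SWISS. Embryonic skin, which is no mammary tissue, had no cell of this class large enough to sum and 0 Lalba counts in each of its summed classes. Of the 5 virgin adult libraries, 2 (A10 and P7) stood above 1000 scaled CPM and the other 3 at 121 or less. The E18.5 rudiment apart, where the ratio was 1.76, LP/alveolar cells held 7.20 to 120 times the Lalba of basal cells of the same library. Outside pregnancy and lactation B4galt1 was 20.7 to 131 scaled CPM in LP/alveolar cells of every mammary library, and both its smallest values, 20.7 in P7 and 26.1 in the duct, and its largest, 131 after involution and 80.1 in A10, fell in libraries with over 1000 scaled CPM of Lalba. Slc35a2 was 10.9 to 22.9 and Galt 10.2 to 37.5 over the same libraries.

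**Figure D5:**
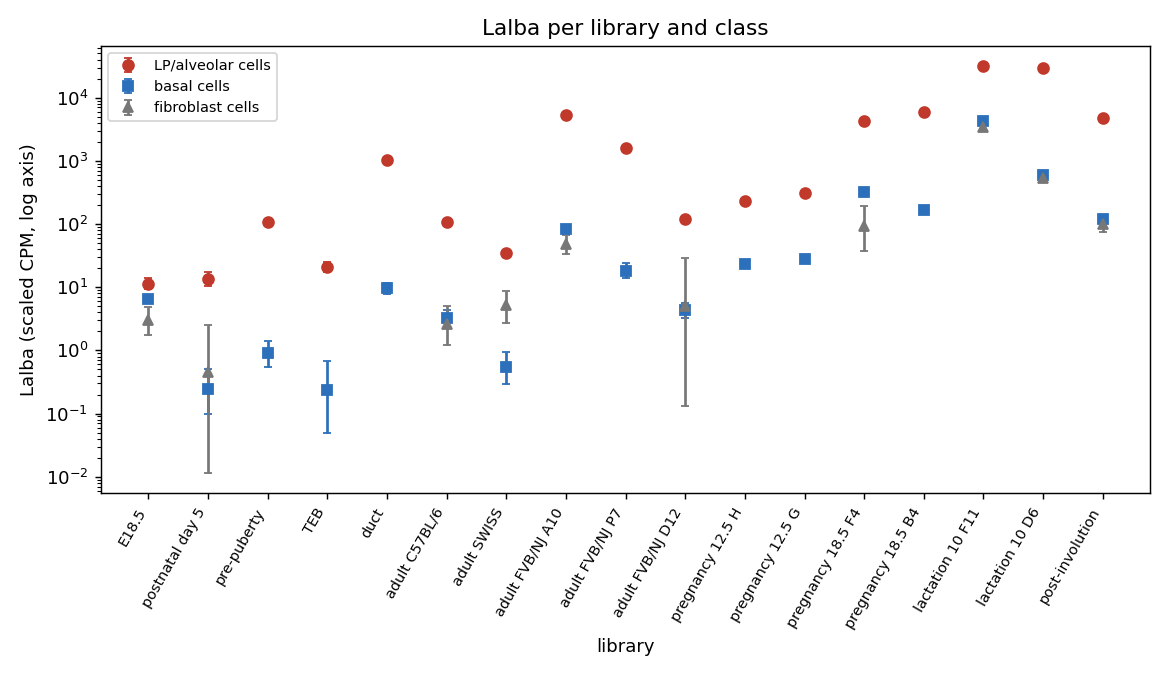
Lalba (scaled CPM, log axis) in each mammary library for LP/alveolar cells, basal cells and fibroblasts, with exact 95% Poisson intervals for counting error. Values of 0 are not drawn. LP/alveolar cells run from 11.4 at E18.5 to 31262 in lactation F11, with the duct at 1038.

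The proportion of Lalba to caseins in LP/alveolar cells also differed among libraries. Per 100 casein and Wap UMIs there were 21.9 Lalba UMIs in the duct, 11.05, 8.42 and 5.32 in adult A10, P7 and D12, 0.121 and 0.148 at day 12.5, 0.662 and 0.874 at day 18.5, 0.721 and 0.559 at lactation, and 3.39 after involution. Among FVB/NJ libraries, Lalba was thus a larger part of these transcripts in virgin and post-involution than in pregnancy and lactation cells. The other libraries gave 0.609 at postnatal day 5, 0.888 in adult SWISS, 0.972 in the TEB, 3.87 at E18.5, 3.96 at pre-puberty and 6.99 in adult C57BL/6, so postnatal day 5 lay below day 18.5. Glycam1, another milk gene, was counted per Lalba UMI, so its values do not compare with those per casein and Wap UMI. It had 52.7 and 46.2 UMIs per Lalba UMI at day 12.5 and 17.3 and 13.9 at day 18.5. The ratio was 2.79 and 2.87 at lactation and 0.297 after involution. Among the adult FVB/NJ libraries only A10 had a Glycam1 UMI in LP/alveolar cells, a single count.

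Other genes of the pathway were taken from 4 lists chosen by function. Of the sugar-phosphate and UDP-sugar enzymes, Gne, which acts in sialic acid synthesis, rose at day 12.5 against the adult (log2 change 1.42, edgeR adjusted p = 0.0197). At lactation Gne and the genes Gfpt1, Pgm3 and Uap1, which make UDP-N-acetylglucosamine, were higher than in the adult, and no gene of this list was lower, where 15.3% of all genes were called higher and 10.8% were called at day 12.5.

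Of 12 other genes of the Slc35 transporter family, not all of which carry nucleotide sugars, Slc35b2 was higher at day 12.5 (1.26, edgeR adjusted p = 0.0288). There were 4 higher at lactation than in the adult and none lower, beside the same 15.3% of all genes. Slc35a3, which carries UDP-N-acetylglucosamine, had the largest change (1.90, edgeR adjusted p = 0.00454), followed by Slc35b1 (1.83, edgeR adjusted p = 0.00357). Of the 6 other beta-1,4-galactosyltransferases, none passed at day 12.5 in edgeR or DESeq2, and 2 had an unadjusted p under 0.05. At lactation B4galt5 (2.76, edgeR adjusted p = 0.0349) and B4galt3 (0.80, edgeR adjusted p = 0.0351) were higher than in the adult and B4galt4 lower (-2.07, edgeR adjusted p = 0.0302), 3 of 6 called against 26.7% of all genes. B4galt3 measured 26.4, 31.5 and 26.7 scaled CPM in adult A10, P7 and D12 and 48.2 and 49.8 at lactation, while B4galt5 was at most 4.45 in any LP/alveolar library.

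Of the 16 genes for glucose uptake and phosphorylation, 8 had counts enough to test in LP/alveolar cells. None of them passed at day 12.5 in edgeR or DESeq2, and 1 had an unadjusted p under 0.05. At lactation the sodium-linked transporter Slc5a1 was higher than in the adult (1.67, edgeR adjusted p = 0.00365) and Gpi1, which feeds glucose 6-phosphate into glycolysis, was lower (-1.23, edgeR adjusted p = 0.0166), 2 of 8 called against 26.7%. Of all 4 lists, Gpi1 alone passed in edgeR in a step after day 12.5, from day 18.5 to lactation (-1.45, edgeR adjusted p = 0.0459). Hk2, a hexokinase, measured 139, 1.72 and 43.7 scaled CPM in adult A10, P7 and D12 and 155 and 249 at lactation. It did not pass there. Every list gene called in edgeR kept its sign under each of the 18 alternatives tried, but calls were often lost. The step of Gpi1 from day 18.5 passed in 6 of 18, and for lactation against the adult B4galt3 and Uap1 passed in 7 each, B4galt5 in 10, B4galt4 in 12 and Gpi1 and Pgm3 in 14 each. At day 12.5 Slc35b2 passed in 12 and Gne in 15.

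The genes most like each member were ranked by Pearson correlation of log2 levels over the 10 FVB/NJ LP/alveolar sums, among 14056 genes. These are descriptions, since the 10 points share stages and the scale. Among the closest to Lalba were BC016548 (r = 0.953), Abca5 (0.953), A630023A22Rik (0.952) and Btn1a1 (0.935), the last a marker of the class. Closest to B4galt1 were Ubr3 (0.994), Setd7 (0.990) and Slc38a3 (0.988). Slc2a1 was most like Dnajc3 (0.958), Slc35a2 most like Lrrc10 (0.982) and Ugp2 most like Spop (0.971). Lrrc10 lay near the floor, at 0 in P7 and D12 and 1.642 in D6 on this log2 scale. Slc38a3 was 0 in P7 and 3.33 in D6.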

How the data were processed

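Single-cell suspensions of mouse mammary glands were run on the 10x Genomics Chromium platform, and the authors deposited raw UMI counts per gene and cell for each of 18 libraries (Cell Ranger 3.0.2 or 3.1.0 per the file headers, build mm10 per the submitters' processing notes). The members and gene lists here were chosen with earlier results of these data known.

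The study's limits on mitochondrial share, genes and counts kept 132599 of 149371 barcodes. These upper limits were the only treatment of doublets, and no caller was run. Cells were assigned to the class with the highest marker score, with at least 3 markers detected, and 2.405% of mammary cells stayed unassigned. Raw counts were summed per library and class with at least 20 cells. Library sizes left out 5 caseins and Wap (6 genes) and carried TMM factors. The 10 FVB/NJ libraries entered 1 edgeR 4.0.16 quasi-likelihood fit per class (R 4.3.3, filterByExpr) with stage as the only term, Benjamini-Hochberg adjustment over all genes tested and a threshold of 0.05. Each SE is the absolute log2 change divided by the square root of the F statistic. A further edgeR fit of LP/alveolar and basal sums had a term for each library, and it and the comparison of lactation with the adult were added after the data were seen. The LP/alveolar fit was also run on simulated sums in which all genes had the same spread, unlike the members, so that run lends no weight to the calls. A library is 1 sample of pooled mice, so p-values measure the spread between libraries, which may be technical in part. Stages with 1 library outside this fit were not tested. Poisson and binomial intervals are exact at 95% and cover counting error only.

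The 6 members are always named. Of each pathway list up to 2 called genes per direction and any at 10 or more scaled CPM may be named, and the likeness rule took the 5 genes nearest to Lalba and the 3 nearest to each other member on log2(scaled CPM + 1), of which some are given. Some genes that these rules would name are not reported here. Promoters are RefSeq windows of 300 bases (GRCm38.p6) matched by symbol for all 6 members. Alternatives were no TMM, DESeq2 size factors, all counts, counts outside 8 milk genes, no low-count filter, DESeq2 1.42.0, a stricter gate (ratio 2), at least 1000 genes per cell, and leaving out the post-involution library or each of the other 9. Python 3.11.15, numpy 2.4.6, scipy 1.17.1, pandas 2.3.3 and matplotlib 3.10.9 were used.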

Additional observations from a re-analysis of the deposited data

Results flagged for a closer look

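The change from the adult to lactation differed between LP/alveolar and basal cells in the fit with a term for each library, by 2.42 log2 units for B4galt1, 1.27 for Slc2a1 and 1.30 for Slc35a2, higher in LP/alveolar cells for each. Lalba UMIs moved with the lactation libraries in every class, and their part in these differences was not tested. The B4galt1 call was lost with at least 1000 genes per cell, without adult D12 and without lactation D6, the Slc2a1 call without TMM, and the Slc35a2 call without TMM, outside all milk genes and without H, G, D12 or D6.

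In 3 cases the libraries of 2 stages did not overlap in either class, with LP/alveolar levels higher and ML levels lower at the later stage. The differences were not tested, and the share of all genes with this pattern was not counted. B4galt1 had a log2 change of 2.30 in LP/alveolar and -0.86 in ML cells from pregnancy day 12.5 to day 18.5. Slc35a2 had changes of 0.23 and -0.75 from the adult to day 12.5, and of 1.44 and -0.64 from the adult to lactation. The ML sums of pregnancy and lactation rest on 66 to 234 cells each. Slc35a2 had only 0.0455 to 0.0606 UMIs per ML cell in the lactation libraries, so these levels rest on few counts. No stage had 4 or more libraries, so single libraries were not examined as outliers.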

How the results depend on the processing

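No paired analysis was possible because the labels name the FVB/NJ libraries by codes and give no number or animal that pairs them across stages. Of 346 recomputed counts of the 6 genes called, 303 stayed within 1.5 times the value given, 30 were higher and 13 lower. Of 448 recomputed log2 changes 411 kept their side of the threshold, as did 81 of 96 differences between classes, and none of these reversed its sign. The changes of Slc2a1, Ugp2 and Galt in LP/alveolar cells from the adult to lactation, which did not pass and are not among them, crossed 0 over the alternatives. The cause of the changes was not tested.

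In LP/alveolar cells the day 12.5 step called 1 gene, and 3 without the low-count filter (with Ugp2 and Lalba), 2 in DESeq2 (with Lalba) and 0 to 1 with a library left out. The day 18.5 step called 0, and 2 without the filter, 3 in DESeq2 and 0 to 1 with a library left out (B4galt1 without adult P7, Lalba without adult D12). The lactation step called 0, and 1 without the filter (Lalba). Lactation against adult called 3, and 1 to 3 with a library left out (B4galt1 alone without D6).

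In basal cells each of the first 3 steps called 0, and 1 without the filter (B4galt1 at day 12.5, Lalba at the other two), and DESeq2 called 1 in the lactation step. Lactation against adult called 2, and 1 (Lalba) on all counts with TMM, with the stricter gate and with at least 1000 genes per cell, and 0 to 2 with a library left out (0 without F11, and 1 without A10, P7, D12, F4 or B4). In ML cells each of the first 3 steps called 0, and 1 without the filter (Lalba). Lactation against adult called 0, and 1 (Lalba) without TMM, outside all milk genes and in DESeq2, 2 without the filter, and 0 to 2 with a library left out (2 without A10, 1 without P7).

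The difference between classes at day 12.5 called 0, and 1 without the filter (Lalba), 1 with the stricter gate (Galt) and 0 to 3 with a library left out (Lalba, Ugp2 and Galt without F11 or D6). At day 18.5 it called 0, and 1 with the stricter gate (Slc2a1) and 0 to 1 with a library left out. At the lactation step it called 0, and 0 to 1 with a library left out (Ugp2 without F11). For lactation against adult it called 3, and 1 to 4 with a library left out (Slc2a1 alone without D12). The Slc35a2 call there was lost without TMM and outside all milk genes.

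In LP/alveolar cells the duct to TEB ratio of Lalba was 73.62 with the stricter gate and that of Ugp2 0.8651 on all counts, and the other 10 recomputed ratios of that class stayed within their counting intervals. Thinning moved 33 of 35 shares of cells with a Lalba UMI. Scaling moved the median log2 change of ML genes from the adult to lactation by up to 0.258 (159 higher and 48 lower against 115 and 70), and at day 12.5 by up to 0.165 (372 and 203 against 277 and 302). ML sums and the single libraries limit what could be detected.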

Other observations

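B4galt5, another beta-1,4-galactosyltransferase that acts in glycolipid synthesis, had its largest change in ML cells, a gene of a list chosen by function whose values were seen before it was picked for description. It measured 0.427, 0 and 0.149 scaled CPM in the ML cells of adult A10, P7 and D12 (8, 0 and 2 counts), 55.4 and 58.4 at pregnancy day 12.5, 118 and 155 at day 18.5, 0 and 24.1 at lactation in F11 and D6 (0 and 4 counts) and 3.82 after involution. It was higher at day 12.5 than in the adult (edgeR adjusted p = 0.000322), and was called under all 18 alternatives. In LP/alveolar cells it stayed at or below 4.45 scaled CPM.

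In basal cells, 1 of 12 glucose genes tested and 1 of 13 sugar-phosphate and UDP-sugar enzymes passed from the adult to lactation, none of the other lists did, and 3.69% of all genes tested passed. Slc5a1, a sodium-linked glucose transporter, was higher (log2 change 4.33, edgeR adjusted p = 0.0171) and Uxs1, which makes UDP-xylose, was lower (-2.01, edgeR adjusted p = 0.0250). The Slc5a1 call held in 13 of the 18 alternatives and the Uxs1 call in 11. Slc5a1 was higher at lactation in LP/alveolar cells too, and the part of background in its basal change was not tested.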
